A study of Mus musculus with 8 samples.

Results

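The 30 genes described here make cholesterol and fatty acids or govern that synthesis. They comprise 18 enzymes of the sterol branch, 6 enzymes of the fatty acid branch, and 6 regulators and a sterol carrier. They were taken by name from the annotation of the array, where Msmo1 is written Sc4mol, and are 30 of the 21318 genes or annotated features tested. Between them they had 45 probes, and the probe that stood for each gene lay well above background on all 8 arrays.

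The cells were wk3, a mouse pre-B cell line that is SLP-65-/- in every group, so it lacks a signalling adaptor of the pre-B cell receptor, and that grows in interleukin 7 (IL-7), the cytokine of early B cell precursors. All cells had been transduced with a retroviral vector and selected with puromycin. The 4 groups were miR-15 sponge cells 36 h after removal of IL-7, miR-15 sponge cells in excess IL-7, scrambled sponge cells 36 h after removal of IL-7, and scrambled sponge cells in excess IL-7, with 2 arrays each. The series describes independent experiments with clones generated anew for each repetition, all from a single line, and IL-7 was removed to start pre-B cell differentiation. RNA was taken from whole cultures, so fewer cells of a kind and less RNA per cell cannot be told apart.

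A sponge is a transcript with binding sites that draw a microRNA family away from its other targets. The miR-15 sponge was designed against 6 family members, whose mature RNAs from RefSeq (GRCm38.p6) are shown because they define the agent tested. Capitals mark the seed, bases 2 to 8, which pairs with targets, and all 6 share the same seed.
miR-15a-5p: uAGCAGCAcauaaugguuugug
miR-15b-5p: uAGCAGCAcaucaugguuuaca
miR-16-5p: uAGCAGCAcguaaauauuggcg
miR-195a-5p: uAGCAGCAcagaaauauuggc
miR-322-5p: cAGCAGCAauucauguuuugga
miR-497a-5p: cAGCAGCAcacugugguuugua

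The sterol branch condenses acetyl-CoA to mevalonate, builds squalene from it and closes and trims the ring to cholesterol, while the fatty acid branch carries acetyl-CoA from citrate to palmitate and on to elongated and desaturated chains. Genes of both branches are classical targets of the SREBP transcription factors, which SCAP escorts out of the endoplasmic reticulum when sterols are scarce and INSIG proteins hold back when sterols are plentiful. Dividing lymphocytes draw on both branches for membrane.

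Levels are given as relative signal, the processed signal of a probe divided by the 75th percentile of its array, and are compared between groups only within a probe. Changes are differences on the log2 scale, given ± SE, each group having n = 2 arrays, and a gene was called when its limma p-value, adjusted over all genes by the method of Benjamini and Hochberg, was under 0.05. On the 8 arrays 50.6% to 56.6% of 59305 spots lay well above background. All 9 B lineage markers were well above background on every array, with a summed relative signal of 1770 in sponge cells without IL-7, 1790 to 1970 with IL-7, 2050 to 2070 in scrambled cells without IL-7 and 1960 to 2050 with IL-7. Myeloid markers summed to 17.2 to 18, 13.3 to 17.5, 26.6 to 26.9 and 15.4 to 20.6 in the same groups. Itgam made up most of that sum, with 26.2 and 25.8 in scrambled cells without IL-7. On removal of IL-7 in scrambled cells Itgam changed by 0.61, Csf1r by -0.07, Mpo by 0.10 and Lyz2, not well above background there, by -1.17. Of 6 adipocyte and liver markers 0 were well above background on all arrays. The part of these marker differences in the results was not tested. The arrays without IL-7 and those with it occupied separate columns of the single slide, and the constructs separate rows, so slide position cannot be told apart from the groups. The scaling also matters for bright probes. Over the 3179 genes with a mean log2 level of 4 or more, 11 of them members, the median withdrawal change was -0.36 in scrambled cells and -0.28 in sponge cells, against -0.03 and 0.00 after quantile normalization.

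The first comparison asked what removal of IL-7 did in scrambled cells. Most genes of both branches fell. Of the 30 members, 24 were called lower and 3 higher, while 27.4% of all genes tested were called lower and 20.7% higher. The median change of the members was -0.79, against -0.024 over all genes, and 12 members fell by 2-fold or more, as did 7.31% of all genes tested. The 3 that rose were the sterol reductase gene Tm7sf2 and the regulators Scap and Insig2, and the 3 not called were Cyp51, Acly and Scd1. After quantile normalization 22 were lower and 4 higher.

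In the mevalonate part of the sterol branch all 7 genes fell. Fdps, which makes farnesyl diphosphate, had the largest change of the 30 under this scaling, while after quantile normalization Acaca stood at -1.66 and Fdps at -1.63 (Fdps probe at mm9 chr3:88897549-88897608, minus strand). Its relative signal was 12 and 11.1 in scrambled cells without IL-7, against 42.1 and 40.7 with IL-7. The 2 groups lay far apart, with a change of -1.84 ± 0.07 (adjusted p = 0.000234). Idi1, the isomerase that supplies the allylic building block, had 8.38 and 7.34 without IL-7, against 25.7 and 23.0 with it (-1.63 ± 0.11, adjusted p = 0.000321). Hmgcs1, the synthase that forms HMG-CoA, had 20.8 and 19.8 without IL-7, against 44.3 and 43.9 with it (-1.12 ± 0.08). Replicates lay close together beside these differences. The mevalonate kinase gene Mvk changed by -1.08 ± 0.08, the phosphomevalonate kinase gene Pmvk by -0.79 ± 0.09, the decarboxylase gene Mvd by -0.81 ± 0.09 and the thiolase gene Acat2 by -0.67 ± 0.10. The second probe of Mvk stood at -1.10 and that of Pmvk at -0.93. A second probe named Hmgcs1 was well above background on 0 arrays and was not used.

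From squalene to cholesterol 9 of 11 genes fell, Tm7sf2 rose and Cyp51 was not called. Sqle, the epoxidase that commits squalene to sterols, had a relative signal of 11.4 and 10.2 in scrambled cells without IL-7, against 30.2 and 31.1 with IL-7 (-1.51 ± 0.10, adjusted p = 0.000308). The squalene synthase gene Fdft1 changed by -1.02 ± 0.07 and the cyclase gene Lss by -0.89 ± 0.07. The demethylation enzymes Msmo1 and Nsdhl changed by -0.76 ± 0.08 and -1.07 ± 0.12, and Dhcr7, which reduces a double bond of the ring, by -1.07 ± 0.10. The weakest falls were those of the ketoreductase gene Hsd17b7 (-0.35 ± 0.08), the isomerase gene Ebp (-0.51 ± 0.07) and the desaturase gene Sc5d (-0.35 ± 0.08). After quantile normalization Hsd17b7 was at -0.25 and Ebp at -0.18, both no longer called (adjusted p = 0.0522 and 0.0544), and Sc5d at -0.24 (adjusted p = 0.0455). Tm7sf2, the sterol C14 reductase, went against its branch with 5.87 and 6.35 in scrambled cells without IL-7, against 4.39 and 3.88 with it (0.56 ± 0.10, adjusted p = 0.00513). Its second probe stood at 0.28. Cyp51, the sterol demethylase, had 1.38 and 1.37 without IL-7, against 1.78 and 3.15 with it. Its groups did not overlap, but the 2 arrays with IL-7 were 0.83 log2 apart, the widest replicate gap of any member, and the change of -0.79 ± 0.27 was not called (adjusted p = 0.0532).

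**Figure D1:**
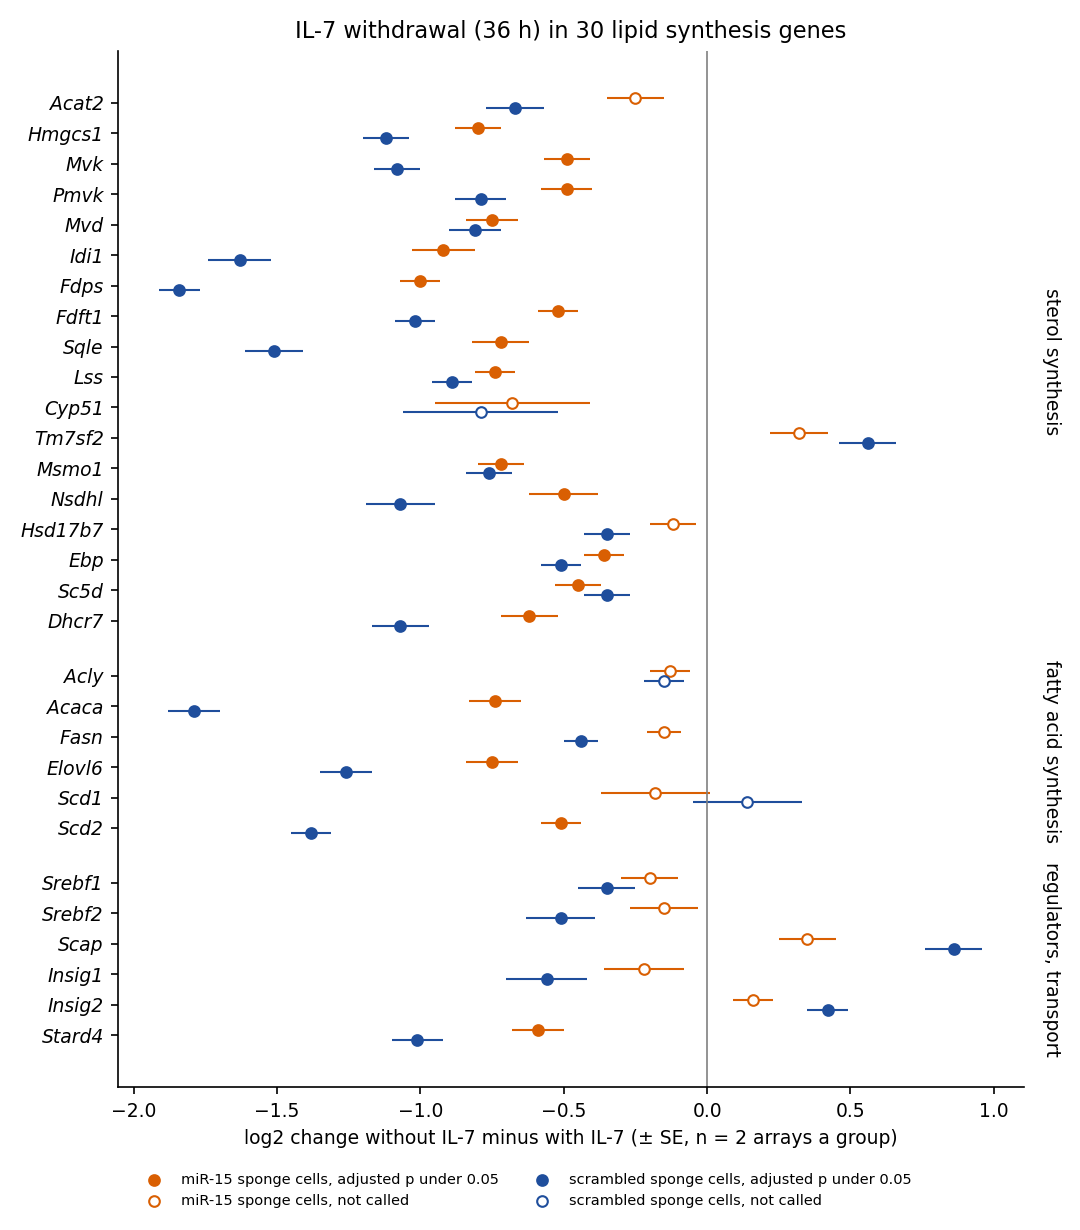
Log2 change on IL-7 removal (without minus with IL-7, horizontal axis, ± SE) for the 30 genes in pathway order, with miR-15 sponge cells above scrambled cells at each gene, and filled points called at an adjusted p under 0.05. In scrambled cells 24 genes were called lower and 3 higher, and in sponge cells 18 lower and 0 higher.

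Stretches before the annotated start of 8 members (RefSeq, GRCm38) are shown because they let genes that fell be set beside Tm7sf2, which rose. Capitals mark CCAAT, read as ATTGG on the other strand, and in Hmgcs1 also the sterol response element TCACNCCAC. The windows are Hmgcs1 at chr13:119690201-119690350 (plus strand), Idi1 at chr13:8885486-8885605 (plus), Mvk at chr5:114444149-114444268 (plus), Nsdhl at chrX:72918401-72918520 (plus), Msmo1 at chr8:64733579-64733698 (minus), Tm7sf2 at chr19:6067851-6067970 (minus), Fasn at chr11:120824548-120824667 (minus) and Elovl6 at chr3:129532266-129532385 (plus).
Hmgcs1: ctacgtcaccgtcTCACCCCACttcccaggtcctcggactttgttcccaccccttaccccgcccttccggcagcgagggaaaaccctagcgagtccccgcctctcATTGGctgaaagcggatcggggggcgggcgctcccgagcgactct
Idi1: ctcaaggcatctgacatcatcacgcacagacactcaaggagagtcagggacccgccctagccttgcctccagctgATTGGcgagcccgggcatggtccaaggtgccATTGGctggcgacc
Mvk: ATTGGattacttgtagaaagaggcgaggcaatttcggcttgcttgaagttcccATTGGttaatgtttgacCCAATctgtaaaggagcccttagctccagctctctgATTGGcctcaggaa
Nsdhl: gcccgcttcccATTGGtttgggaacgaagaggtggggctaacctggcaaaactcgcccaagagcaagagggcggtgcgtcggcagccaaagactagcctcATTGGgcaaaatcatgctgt
Msmo1: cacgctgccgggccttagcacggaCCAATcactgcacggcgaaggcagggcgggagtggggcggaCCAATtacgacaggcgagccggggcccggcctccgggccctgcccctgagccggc
Tm7sf2: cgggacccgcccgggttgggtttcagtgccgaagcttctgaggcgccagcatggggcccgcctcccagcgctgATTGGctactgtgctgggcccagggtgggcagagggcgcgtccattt
Fasn: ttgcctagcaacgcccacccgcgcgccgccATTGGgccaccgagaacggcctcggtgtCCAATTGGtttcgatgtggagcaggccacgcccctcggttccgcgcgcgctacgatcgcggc
Elovl6: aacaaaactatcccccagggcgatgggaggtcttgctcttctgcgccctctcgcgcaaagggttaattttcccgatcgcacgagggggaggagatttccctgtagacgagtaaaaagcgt
Of the 30 members, 24 had a promoter in the table, a window of 250 bases before to 50 after the start, searched on both strands. A gene with several promoters was counted if any of them held the motif. CCAAT stood in 20 of these 24 (83.3%), 14 of 15 in the sterol branch, 2 of 4 in the fatty acid branch and 4 of 5 regulators. Of the 11042 tested genes with a promoter, 42.9% hold it. Fasn carries 3 matches, of which 2 overlap on opposite strands, Tm7sf2 carries 1, and the window of Elovl6, which fell, carries 0. Among the members searched, TCACNCCAC was found in Hmgcs1 only (at position -137 from the start), and in 1.45% of the tested genes with a promoter. Only this pattern in this window was searched, so a variant or more distant element would be missed. The sterol genes Fdps, Fdft1 and Sqle had no promoter to search. The GC box GGGCGG was in 20 of 24 members and 62.7% of the tested genes with a promoter. By branch it was in 14 of 15 sterol genes, 1 of 4 fatty acid genes and 5 of 5 regulators. The E-box CACGTG, which reads the same on both strands, was in 5 of 24 and 11.1%. These matches describe letters and do not show binding.

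In the fatty acid branch 4 of 6 genes fell in scrambled cells. Acaca, the acetyl-CoA carboxylase that commits carbon to fatty acids (probe at mm9 chr11:84215093-84215152, plus strand), had a relative signal of 4.24 and 3.72 without IL-7, against 14.4 and 13.1 with IL-7 (-1.79 ± 0.09, adjusted p = 0.000234). Its other 3 probes stood at -1.77, -2.29 and -2.30. Scd2, a stearoyl-CoA desaturase, had 14.8 and 14 without IL-7, against 37.5 and 37.3 with it (-1.38 ± 0.07, adjusted p = 0.000234). In both genes the groups were well separated. Elovl6, the elongase that acts on palmitate, had 9.53 and 8.64 without IL-7, against 22.2 and 21.2 with it (-1.26 ± 0.09). Fasn, the synthase that makes palmitate, had a smaller change, with 0.623 and 0.634 without IL-7, against 0.865 and 0.839 with it (-0.44 ± 0.06, adjusted p = 0.00287). Acly, which splits citrate to acetyl-CoA, was not called, at 34.7 and 34.8 without IL-7, against 39.3 and 37.7 with it (-0.15 ± 0.07, adjusted p = 0.131). Its direction depended on the scaling, with 0.20 after quantile normalization (adjusted p = 0.0385) and 0.22 in the deposited value table (adjusted p = 0.0296), and 0.11 after normexp and quantile normalization (adjusted p = 0.291). Scd1, the other desaturase, had 13.2 and 13.5 without IL-7, within the range of 9.90 and 14.9 with it (0.14 ± 0.19, 95% interval -0.32 to 0.60). The desaturase pair stood at -1.38 for Scd2 and 0.14 for Scd1, in a gene family whose members are similar in sequence.

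The regulators changed in both directions. Srebf2, the SREBP most tied to sterol genes, had a relative signal of 3.94 and 4.26 in scrambled cells without IL-7, against 5.97 and 5.66 with it (-0.51 ± 0.12, adjusted p = 0.017), and its second probe stood at -0.50. Srebf1, more tied to fatty acid genes, changed by -0.35 ± 0.10 (adjusted p = 0.0298). Insig1, itself an SREBP target, changed by -0.56 ± 0.14 (adjusted p = 0.0193), and Stard4, a cytosolic sterol carrier, by -1.01 ± 0.09, with -1.62 at its second probe. Scap, the escort (probe at mm9 chr9:110287280-110287339, plus strand), rose, with 46.8 and 52.7 without IL-7, against 26.2 and 28.4 with it (0.86 ± 0.10, adjusted p = 0.00116), and stood at 1.18 after quantile normalization. Insig2, the partner of Insig1 in holding SCAP back, rose too, with 4.20 and 4.28 without IL-7, against 3.18 and 3.15 with it (0.42 ± 0.07), and 0.43 at its second probe. The escort and this retention factor rose while both SREBP genes fell.

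Set side by side in scrambled cells, the branches had much the same median. The median change in scrambled cells was -0.85 for the 18 sterol genes (-1.84 to 0.56) and -0.85 for the 6 fatty acid genes (-1.79 to 0.14), and 16 of 18 and 4 of 6 were called lower. The fatty acid median fell between Fasn at -0.44 and Elovl6 at -1.26, with no gene of the branch in between. In sponge cells the medians were further apart, at -0.57 and -0.35. With each gene centred on its mean over the 8 arrays, the sterol branch averaged -0.08 and -0.12 in sponge cells without IL-7, 0.44 and 0.45 with IL-7, -0.60 and -0.62 in scrambled cells without IL-7, and 0.22 and 0.30 with IL-7. The fatty acid branch averaged 0.00 and -0.04, 0.38 and 0.41, -0.56 and -0.62, and 0.20 and 0.24 in the same groups. In both branches the order of the 4 groups was the same, and no array of a group overlapped another group. The regulators moved less as a set, between -0.15 and 0.10, since some rose and others fell.

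**Figure D2:**
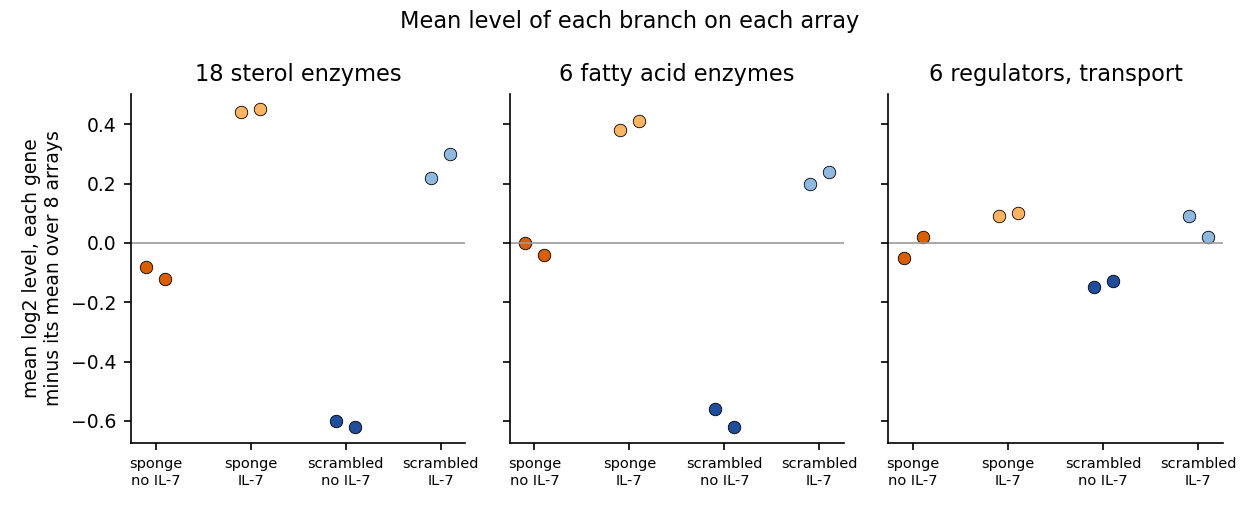
Mean log2 level of each branch on each array (vertical axis, each gene minus its mean over 8 arrays), with 2 points a group. In the sterol and fatty acid panels scrambled cells without IL-7 are lowest (-0.56 to -0.62), sponge cells without IL-7 next (-0.12 to 0.00), and the 2 groups with IL-7 highest (0.20 to 0.45).

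The second comparison asked what removal of IL-7 did in miR-15 sponge cells. Both branches fell again, by less. Of the 30 members 18 were called lower and 0 higher, while 15.3% of all genes tested were called lower and 7.92% higher, and the median change was -0.49, against -0.065 over all genes. The same 18 genes were among the 24 lower in scrambled cells, 75% of that list and 100% of the sponge list. The comparisons share no array, but both use the same estimate of each gene's spread, so the 2 lists are not independent. The overlap of such lists over all genes was not counted. The count fell to 11 without replicate 2 of sponge cells without IL-7 and to 12 without replicate 2 of sponge cells with IL-7. The sterol branch gave 14 lower of 18 (median -0.57) and the fatty acid branch 3 of 6 (median -0.35, or -0.21 after quantile normalization).

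Fdps had a relative signal of 27.7 and 28.3 in sponge cells without IL-7, against 55.5 and 56.1 with IL-7 (-1.0 ± 0.07, adjusted p = 0.00206). Idi1 had 16.5 and 14.5 without IL-7, against 29.4 and 29.4 with it (-0.92 ± 0.11), and Sqle 26.2 and 22.7 against 39.6 and 40.4 (-0.72 ± 0.10). Hmgcs1 stood at -0.80 ± 0.08, Mvd at -0.75 ± 0.09, Lss at -0.74 ± 0.07 and Msmo1 at -0.72 ± 0.08. In the fatty acid branch Elovl6 stood at -0.75 ± 0.09, Acaca at -0.74 ± 0.09 with 10.1 and 10.2 without IL-7, against 17.2 and 16.9 with it, and Scd2 at -0.51 ± 0.07 with 30.9 and 29.9, against 43.5 and 43.4. Mvk at -0.49, Ebp at -0.36 and Scd2 are among the bright probes, and after quantile normalization stood at -0.24, -0.09 and -0.25 (adjusted p = 0.0917, 0.346 and 0.0497). Fasn, Acly and Scd1 were not called, at -0.15 ± 0.06, -0.13 ± 0.07 and -0.18 ± 0.19. Of the regulators only Stard4 was called (-0.59 ± 0.09). Srebf2 stood at -0.15 ± 0.12 (95% interval -0.44 to 0.15), Srebf1 at -0.20 ± 0.10, Insig1 at -0.22 ± 0.14 and Insig2 at 0.16 ± 0.07. Scap, at 35.3 and 32.3 without IL-7, against 27.4 and 25.6 with it, was not called (0.35 ± 0.10, adjusted p = 0.0543) but was after quantile normalization (0.59, adjusted p = 0.0142).

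**Figure D3:**
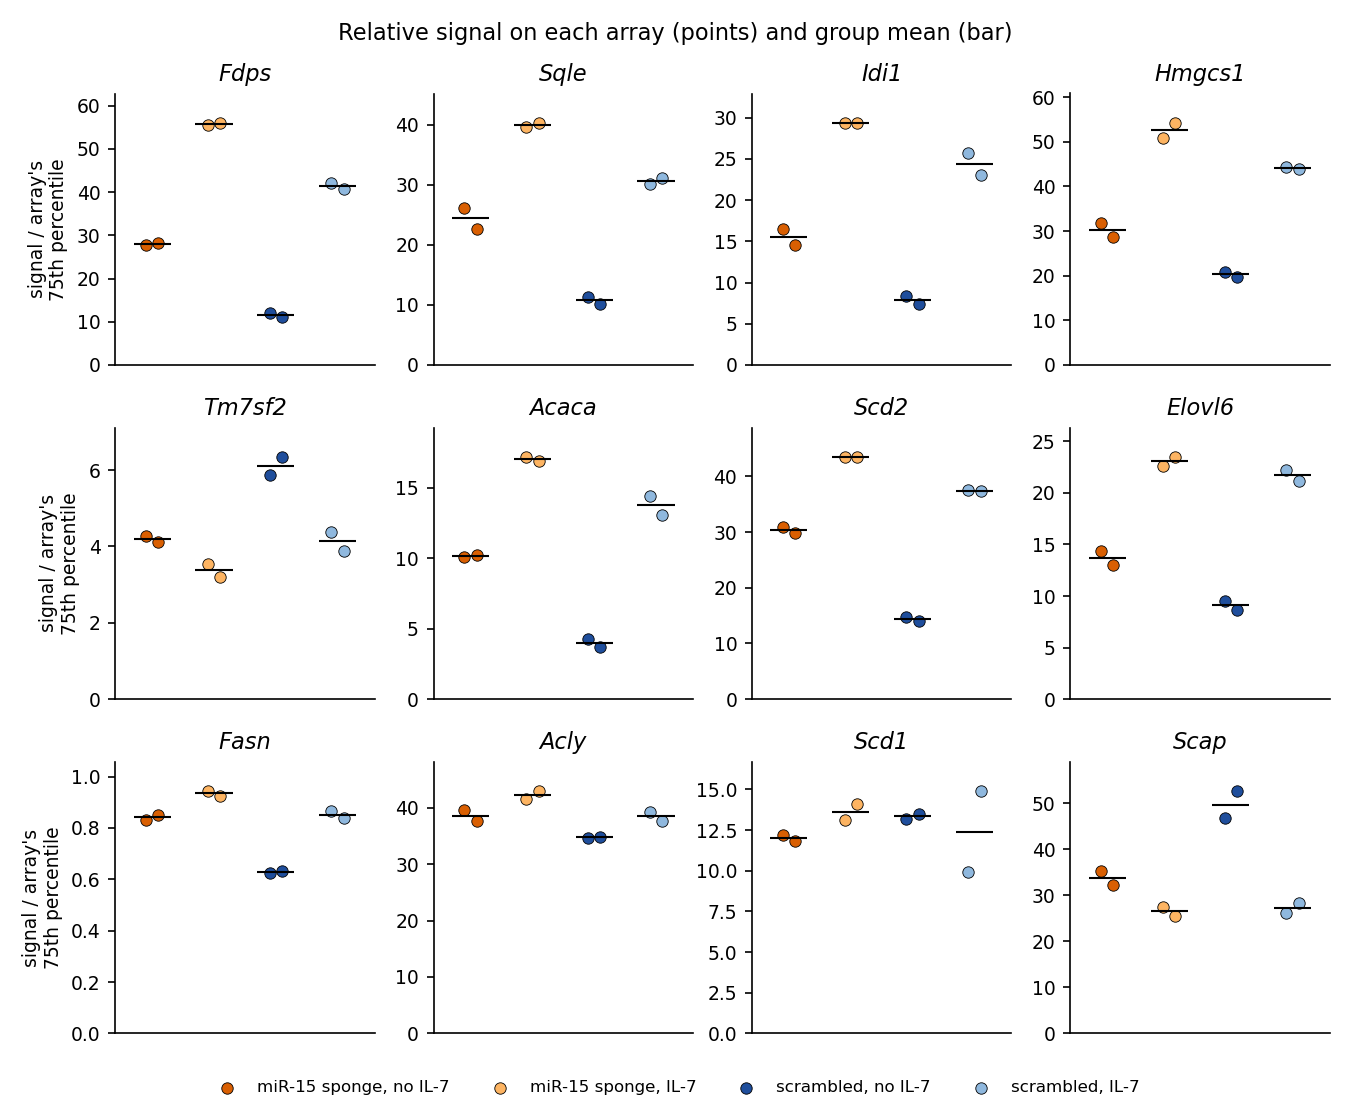
Relative signal (linear vertical axis from 0, processed signal over the array's 75th percentile) of 12 of the genes, with points for the 2 arrays and a bar for the mean of each group. For Fdps, Sqle, Idi1, Acaca and Scd2 sponge cells without IL-7 lie between scrambled cells without IL-7 and both groups with IL-7, while Tm7sf2 and Scap are highest in scrambled cells without IL-7 and Scd1 shows no such order.

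With IL-7 present, no member passed the test between miR-15 sponge and scrambled cells. By limma 0 of 30 were called, and over all genes 0.816% were called lower and 0.314% higher. At an unadjusted p under 0.05 there were 11 of 30 members, against 19.5% of all genes, and the difference was positive for 25 members, against 51.5% of all genes. The median difference was 0.16. Fdps, at 55.5 and 56.1 in sponge cells against 42.1 and 40.7 in scrambled cells, had 0.43 ± 0.07 (adjusted p = 0.0616), and Lss, at 2.26 and 2.24 against 1.76 and 1.62, had 0.41 ± 0.07 (adjusted p = 0.0695). The groups did not overlap in either gene. Both were called where only probes well above background on all 8 arrays were tested (adjusted p = 0.0416 and 0.0476). Lss was also called after normexp and quantile normalization (0.43, adjusted p = 0.0194).

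Without IL-7, sponge cells held more of most of these transcripts than scrambled cells. Of 30 members 17 were called higher and 3 lower, with 16.8% of all genes called higher and 15.3% lower, and the median difference was 0.49, against -0.048 over all genes. Levels in all groups for the main genes are given above, and this comparison shares its scrambled arrays with the first, so its values stand beside those and are no separate support. Acaca had 10.1 and 10.2 in sponge cells against 4.24 and 3.72 in scrambled cells (1.35 ± 0.09, adjusted p = 0.00111), Fdps 27.7 and 28.3 against 12 and 11.1 (1.27 ± 0.07), Sqle 26.2 and 22.7 against 11.4 and 10.2 (1.18 ± 0.10), and Scd2 30.9 and 29.9 against 14.8 and 14 (1.08 ± 0.07). These 4 genes were more than 2-fold higher. Over all 21318 genes tested, 1547 were called with a difference of 2-fold or more in either direction. In the sterol branch 11 of 18 were higher, with Idi1 at 0.98 ± 0.11, Mvk at 0.85 ± 0.08, Nsdhl at 0.67 ± 0.12 and Fdft1 at 0.65 ± 0.07, while Mvd (0.22 ± 0.09), Msmo1 (0.26 ± 0.08), Ebp (0.14 ± 0.07), Sc5d (0.16 ± 0.08), Acat2 (0.21 ± 0.10) and Cyp51 (0.72 ± 0.27) were not called. Hsd17b7 was called at 0.28 ± 0.08 (adjusted p = 0.0469), but not with replicate as a block (adjusted p = 0.0516) or after quantile normalization (0.22, adjusted p = 0.0915). In the fatty acid branch Elovl6 (0.60 ± 0.09) and Fasn (0.42 ± 0.06) were higher too, and Acly (0.15 ± 0.07) and Scd1 (-0.15 ± 0.19) were not called. The genes lower in sponge cells were Scap (35.3 and 32.3 against 46.8 and 52.7, -0.56 ± 0.10), Tm7sf2 (4.28 and 4.12 against 5.87 and 6.35, -0.54 ± 0.10) and Insig2 (3.18 and 2.91 against 4.20 and 4.28, -0.48 ± 0.07). Without replicate 2 of sponge cells without IL-7 the calls of Scap (adjusted p = 0.0539) and Tm7sf2 (adjusted p = 0.0554) were lost, as they were without replicate 2 of scrambled cells without IL-7 (adjusted p = 0.0599 and 0.0671), and only Insig2 stayed called. Srebf2 was higher, with 5.60 and 6.53 against 3.94 and 4.26 (0.56 ± 0.12, adjusted p = 0.0173), as was Stard4 (0.62 ± 0.09). Insig1 at 0.38 ± 0.14 and Srebf1 at 0.22 ± 0.10 were not called, though Srebf1 was after quantile normalization (0.30, adjusted p = 0.0319). Of the B lineage markers 4 of 9 were lower in sponge cells without IL-7, led by Pax5 at -0.60.

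**Figure D4:**
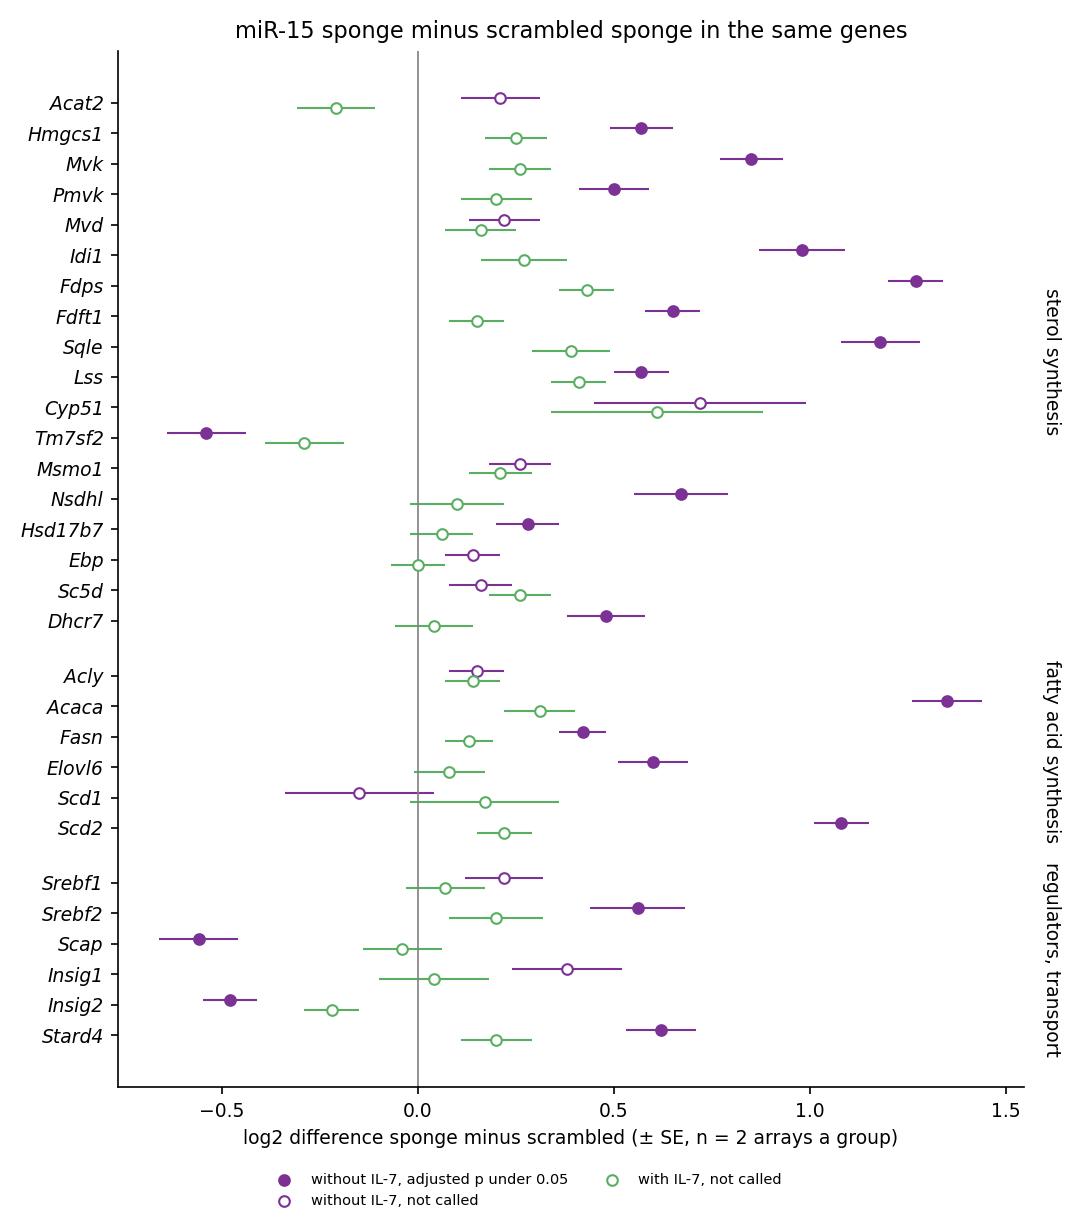
Log2 difference between miR-15 sponge and scrambled cells (horizontal axis, sponge minus scrambled, ± SE) for the 30 genes, without IL-7 above and with IL-7 below at each gene, and filled points called at an adjusted p under 0.05. Without IL-7 17 genes were higher and 3 lower, and with IL-7 0 were called.

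Whether removal of IL-7 acted differently in the sponge and scrambled cells was tested as the difference of the withdrawal changes, sponge minus scrambled. Among the 24 members lower in scrambled cells, 23 had a smaller fall in sponge cells, the exception being Sc5d at -0.45 against -0.35. Of all 5837 genes called lower in scrambled cells 86.5% likewise had a smaller fall in sponge cells, so the share of the members is near that of genes picked the same way. The difference itself was called for 5 of 30 members, all positive, while 4.32% of all genes were called positive and 0.952% negative. In the sterol branch these were Fdps (0.84 ± 0.10, adjusted p = 0.0307), Sqle (0.79 ± 0.14, adjusted p = 0.0402) and Mvk (0.59 ± 0.11, adjusted p = 0.0441). In the fatty acid branch they were Acaca (1.05 ± 0.13, adjusted p = 0.0307) and Scd2 (0.86 ± 0.09, adjusted p = 0.0307). Taken by replicate number, which is assumed to mark the experiment, the difference was 0.80 and 0.88 for Fdps, 0.81 and 0.77 for Sqle, 0.55 and 0.63 for Mvk, 1.00 and 1.09 for Acaca and 0.85 and 0.87 for Scd2. The calls lay close to the threshold. With replicate as a block 0 of 30 were called, with adjusted p = 0.0508 for Fdps, Acaca and Scd2, 0.0556 for Mvk and 0.0567 for Sqle. Without any filter on dim probes the count was 0, after quantile normalization 7, and after normexp and quantile normalization 10, of which 9 were positive and Insig2 was negative. Leaving out an array gave 0 members for replicate 1 or 2 of sponge cells without IL-7, replicate 1 or 2 of sponge cells with IL-7, replicate 2 of scrambled cells without IL-7 and replicate 1 of scrambled cells with IL-7, 3 for replicate 1 of scrambled cells without IL-7 and 4, of which 3 were positive and 1 negative, for replicate 2 of scrambled cells with IL-7. Idi1 at 0.71 ± 0.16 (adjusted p = 0.0619), Fdft1 at 0.50 ± 0.10 (adjusted p = 0.0528) and Elovl6 at 0.51 ± 0.13 (adjusted p = 0.08) were the nearest of the rest. Mvd (0.06 ± 0.12, 95% interval -0.24 to 0.36), Msmo1 (0.04 ± 0.11, -0.24 to 0.33) and Acly (0.02 ± 0.10, -0.23 to 0.26) lay near 0. The median was 0.31 in the sterol branch and 0.40 in the fatty acid branch, against -0.042 over all genes.

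**Figure D5:**
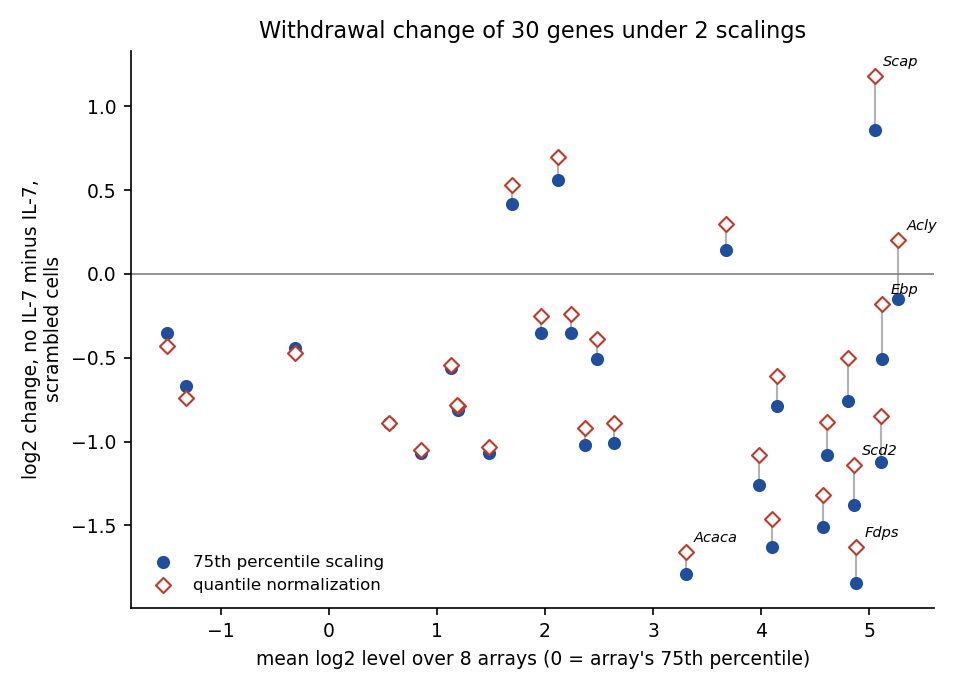
Log2 change on IL-7 removal in scrambled cells (vertical axis) against the mean log2 level of the gene's probe over 8 arrays (horizontal axis, 0 is the array's 75th percentile), with filled circles for the 75th percentile scaling and open diamonds for quantile normalization, joined by gene. The scalings part at the bright end, where Acly moves to 0.20 against -0.15 and Ebp to -0.18 against -0.51, while Fdps (-1.63 against -1.84) and Acaca (-1.66 against -1.79) stay lower.

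Further lists of lipid metabolism are read against the shares of all genes, which in scrambled cells were 27.4% lower and 20.7% higher, and in sponge cells 15.3% lower and 7.92% higher. Among 10 further genes of sterol and isoprenoid steps, 6 fell and 1 rose in scrambled cells and 5 fell and 0 rose in sponge cells. Pdss1, which makes the ubiquinone side chain, changed by -1.02 ± 0.08 in scrambled cells and by -0.48 ± 0.08 in sponge cells. Of 20 measured further genes of fatty acid synthesis, 10 fell and 2 rose in scrambled cells, and 9 fell and 0 rose in sponge cells, or 5 after quantile normalization. They were led by Fads1 (-1.71 and -0.76) and Fads2 (-1.36 and -0.64), the desaturases of polyunsaturated chains, by Hsd17b12, a reductase of chain elongation (-1.35 and -0.72), and in sponge cells also by Acsl3, an acyl-CoA synthetase (-0.94 and -0.67). Of 15 measured genes of fatty acid oxidation, 5 fell and 3 rose in scrambled cells, and 5 fell and 0 rose in sponge cells (2 fell after quantile normalization), counts in scrambled cells near the shares of all genes. The genes of largest change were Acadl at -0.96 and -0.38, Hadha at -0.70 and -0.43 and Decr1 at -0.58 and -0.40, and among those that rose in scrambled cells were Acadvl (0.48) and Acadm (0.43).

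Genes of sterol uptake, storage, efflux and the LXR receptors, 16 in all, gave 7 higher and 4 lower in scrambled cells, and 4 higher and 3 lower in sponge cells. The share lower was near that of all genes in both. The share higher was above that of all genes (20.7% in scrambled cells and 7.92% in sponge cells), which was not tested for the list as a set. Tmem97, a sterol-responsive membrane protein, fell by 1.43 on the log2 scale in scrambled cells (sponge cells, -0.58). Nr1h3, the gene of the sterol-sensing receptor LXR alpha, rose by 1.21 (sponge cells, 0.47, which was not called after quantile normalization, adjusted p = 0.0511). After normexp and quantile normalization Nr1h3 stood at 0.66 in scrambled cells and at 0.20 in sponge cells (not called, adjusted p = 0.137). Mylip, an LXR target that degrades the LDL receptor, rose by 1.06 (sponge cells, 0.75), and Abca1, a cholesterol exporter and LXR target, by 0.32 (sponge cells, 0.71). Other LXR targets went the other way in scrambled cells, the exporter gene Abcg1 with -0.55 (sponge cells, 0.26, not called) and the phospholipid enzyme gene Lpcat3 with -0.61 (sponge cells, -0.41). The call of Abcg1 in scrambled cells was lost after normexp and quantile normalization (-0.27, adjusted p = 0.103). Apoe, of the same list, rose by 0.45 in scrambled cells (sponge cells, 0.16, not called). Abcg1, Lpcat3, Apoe, Acadvl and Acadm were named after their values were seen. Ch25h, which makes 25-hydroxycholesterol, was not well above background on any array with IL-7. Its probe passed the filter only through scrambled cells without IL-7, where it was high. It was at least 1.92-fold higher in scrambled cells without IL-7. This bound sets the bright mean against the lowest signal well above background on each dim array, or the probe's own where higher. The bound was not tested. In sponge cells only 1 of 2 arrays without IL-7 measured it, so no bound is given there. Fitted changes were 2.29 in scrambled cells and 1.86 in sponge cells, and Ch25h is counted among the genes called higher in both. Both fitted changes rest on signals not well above background in the groups with IL-7, so no p-value is given for them. After normexp and quantile normalization the fitted change of Ch25h was 0.31 in scrambled cells and 0.26 in sponge cells, where it was not called. Of 6 genes of SREBP processing and turnover, 2 rose in scrambled cells, the protease gene Mbtps1 (0.54 ± 0.09) and Lpin1 (0.77 ± 0.25, not called after quantile normalization, adjusted p = 0.0921), and 0 were called in sponge cells.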

How the data were processed

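RNA of 8 cultures was hybridised to one-colour Cy3 Agilent arrays on 1 slide read in 1 scan. The deposited scanner tables hold processed signal intensity on a linear scale, background-subtracted and detrended within the array, per the file headers, and not normalized between arrays. Feature Extraction was version 10.7.1.1 per the submitters' processing notes and 10.7.3.1 per the file headers. The authors also deposited a table of processed values for all arrays, again intensity, which has the same distribution on every array, and its software is not given in the sources used here.

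Control spots and spots flagged as non-uniform or population outliers (128 to 277 an array) were removed. The log2 signal minus the array's 75th percentile (297.3 to 410.2 in signal units) was averaged where a probe had several spots, and 30965 of 55681 probes were kept, those that some group had well above background on its 2 arrays. The kept probe with the highest mean stood for a gene. Probes of the members were named by the deposited annotation, others through RefSeq, 27235 by accession, 3581 by symbol and 565 by synonym, and 24300 kept the file's name. Positions of probes are on mm9 as deposited.

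Group means were fitted with limma 3.58.1 in R 4.3.3 (residual degrees of freedom 4, prior 1.811), two-sided, adjusted over 21318 genes. The procedure was also run on simulated data in which few genes changed. Many more genes were called in these data, so that run cannot show whether the calls here hold. The series describes 2 independent experiments, and replicate numbers were assumed to mark them. Deviations of samples with the same number from the group means correlated at 0.0176 to 0.131, and the fit with replicate as a block is an alternative. The members and lists were chosen with earlier results of these data known. All 30 members are named, and from each further list up to 3 called genes of largest absolute change in each withdrawal comparison. Some genes that this rule names are not reported here. The alternatives were quantile normalization, normexp with quantile normalization, the deposited value table, other probe and spot filters, the mean of a gene's probes, the replicate block and leaving out each array. The scalings of the counts of lists and of each branch, unlike those of the branch medians, were added after seeing the data. The number of arrays limits the precision.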

Additional observations from a re-analysis of the deposited data

Results flagged for a closer look

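The change on IL-7 removal was called different between miR-15 sponge and scrambled cells, by the test of the difference itself, in 5 of the 30 genes. Over all genes 4.32% were called positive and 0.952% negative. The difference (sponge minus scrambled, log2) was 1.05 for Acaca, 0.86 for Scd2, 0.84 for Fdps, 0.79 for Sqle and 0.59 for Mvk, with limma adjusted p-values of 0.0307, 0.0307, 0.0307, 0.0402 and 0.0441. All 5 fell less in sponge cells. With replicate as a block the adjusted p-values were 0.0508 to 0.0567. The differences themselves cannot change in that fit, since every group holds both replicate numbers. The count was 0 of 30 with that block and 0 of 30 without any filter on dim probes.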

How the results depend on the processing

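Called members on IL-7 removal in scrambled cells stayed between 25 and 28 of 30 under the settings that kept all arrays (27 as reported), and between 22 and 27 when an array was left out. In sponge cells the counts were 15 to 20 (18 as reported) and 11 to 19. For sponge against scrambled cells without IL-7 they were 19 to 21 (20 as reported) and 14 to 21. With IL-7 the count was 1 after normexp and quantile normalization and 2 with probes well above background on all 8 arrays, with 0 to 1 when an array was left out. For the difference of withdrawal changes it was 10 (9 positive) after normexp and quantile normalization, 0 without a filter on dim probes, 0 with the replicate block, and 0 to 4 when an array was left out. Acly on removal in scrambled cells turned to 0.20 with quantile normalization and to 0.22 with the values the authors deposited. Beside the 5 genes of that difference, the replicate block ended the call of Hsd17b7 between sponge and scrambled cells without IL-7 (adjusted p = 0.0516), and it changed no other call among the members. Why the counts moved was not tested, beyond the smaller number of arrays in the leave-out fits.

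Branch medians moved beyond the replicate spread with the scaling but kept their signs. In scrambled cells the sterol median was -0.74 after normexp and quantile normalization, and the fatty acid median -0.78, -0.72 and -0.78 (quantile, normexp with quantile, deposited table, in that order throughout). In sponge cells the sterol medians were -0.46, -0.45 and -0.45 and the fatty acid medians -0.21, -0.18 and -0.21. Between sponge and scrambled cells with IL-7 the sterol medians were 0.12, 0.07 and 0.13 and the fatty acid medians 0.11, 0.05 and 0.12. Without IL-7, under the quantile and normexp settings, the sterol medians were 0.46 and 0.45 and the fatty acid medians 0.48 and 0.42. The fatty acid median of the difference was 0.38 after normexp. Leaving out an array gave sterol medians of -0.96 to -0.85 in scrambled cells and 0.26 to 0.41 for the difference. It gave fatty acid medians of -0.88 to -0.82 in scrambled cells, -0.37 to -0.33 in sponge cells, 0.13 to 0.19 and 0.48 to 0.54 between sponge and scrambled cells with and without IL-7, and 0.37 to 0.43 for the difference.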
